A study of Mus musculus with 8 samples.

Results

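A set of 10 skeletal muscle genes was followed in mouse motor neuron cultures: the myogenic factors Myod1, Myog and Myf5, the sarcomere genes Acta1, Actc1, Myh3, Myl1 and Tnnt1, the muscle creatine kinase gene Ckm and the intermediate filament gene Des. They were chosen by symbol, as 10 of the 19897 genes with a symbol and a probe on the array, and 12 probes carry a RefSeq accession of one of them. Of the 10, 7 counted as measured, which needed a probe well above background in both replicates of some group, and Myod1, Myf5 and Ckm did not. The cells came from male mouse embryonic stem cells of a line titled Hb9GFP. All groups received retinoic acid and Shh from day 2 to day 5, were split from embryoid bodies into single cells on day 5, and were then kept with GDNF until sampling. The genotypes were a control (Ctrl) and a knockout of Litchi (LitchiKO). Each was sampled on day 7 and again on day 9, and each of these 4 groups has 2 of the 8 arrays. Neither the number of knockout clones nor the source of the replicates (separate cultures or not) is given in the labels, so p-values reflect the spread among these arrays alone, and that spread may be technical. Litchi itself was not analysed here, so no level of the targeted gene checks the labels.

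Skeletal muscle arises in the embryo from paraxial mesoderm, whose cells are committed to muscle by the basic helix-loop-helix factors Myf5 and Myod1. Myogenin, the product of Myog, then drives differentiation, during which the cells leave the cycle, fuse and build sarcomeres of thick myosin and thin actin filaments. Embryonic isoforms such as Myh3 and Actc1 appear early in this programme. Muscle is the target of spinal motor neurons, not part of their own lineage, and several of these genes are also used elsewhere: Actc1 in the heart, Des in cardiac and smooth muscle.

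A level is given here as the log2 of an array spot's processed signal minus the 75th percentile of that array, so 0 is the brightness of a gene at that percentile and each unit is a doubling. The percentile ran from 649 to 1691 intensity units, was higher for replicate 1 than for replicate 2 in each group, and 55.9% to 67.9% of spots per array stood well above background. Of the labelled cell type, 15 of 15 neuron and motor neuron markers were well above background on all 8 arrays. So were 8 of 8 fibroblast markers, and detection in a whole culture does not by itself establish its cell type. Because whole cultures were measured, fewer cells of a type and less RNA per cell cannot be told apart.

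Among the myogenic factors, Myog was the 1 that passed the filter, and it did so through the day 7 knockout arrays. Its level was -4.94 and -6.43 in day 7 controls, -4.10 and -4.99 in the day 7 knockout, -5.69 and -7.28 in day 9 controls and -5.55 and -5.69 in the day 9 knockout. The probe is printed in 10 spots per array, and it was well above background on both day 7 knockout arrays, on replicate 1 of the day 7 controls and on replicate 1 of the day 9 knockout. On replicate 2 of the day 7 knockout it lay at the limit, with 5 of 10 spots above background. Highest in the day 7 knockout, Myog had a log2 change of 1.14 ± 0.66 (SE) against the day 7 control, with an adjusted p of 0.404 in limma, and the values of the 2 groups overlapped. On day 9 the control was not well above background on either array, so no fold is given there.

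Myod1 was read above background on 3 arrays, all of them replicate 1. Its intensity was 102 and 7.11 in day 7 control cells, 49.5 and 6.05 in day 7 knockout cells, 16.9 and 7.25 in day 9 control cells and 15.8 and 5.85 in day 9 knockout cells. On replicate 1 of both day 7 groups 10 of 10 spots were above background, and on replicate 1 of the day 9 knockout 5 of 10 were. On that day 9 knockout array the mean of 15.8 lay under 18.5, the dimmest spot above background there. The 3 arrays that counted as above background for Myod1 had a 75th percentile of 1643, 1691 and 1429 intensity units, against 649 to 854 on the 4 arrays of replicate 2. Replicate 1 of the day 9 control, where 16.9 did not count, lay between them at 1088. Whether brightness or the culture sets this difference was not tested. Myf5 was not well above background on any of the 8 arrays, with intensities from 4.05 to 5.7, and Ckm, the creatine kinase of mature muscle, was not either, with 4.03 to 9.11.

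**Figure D1:**
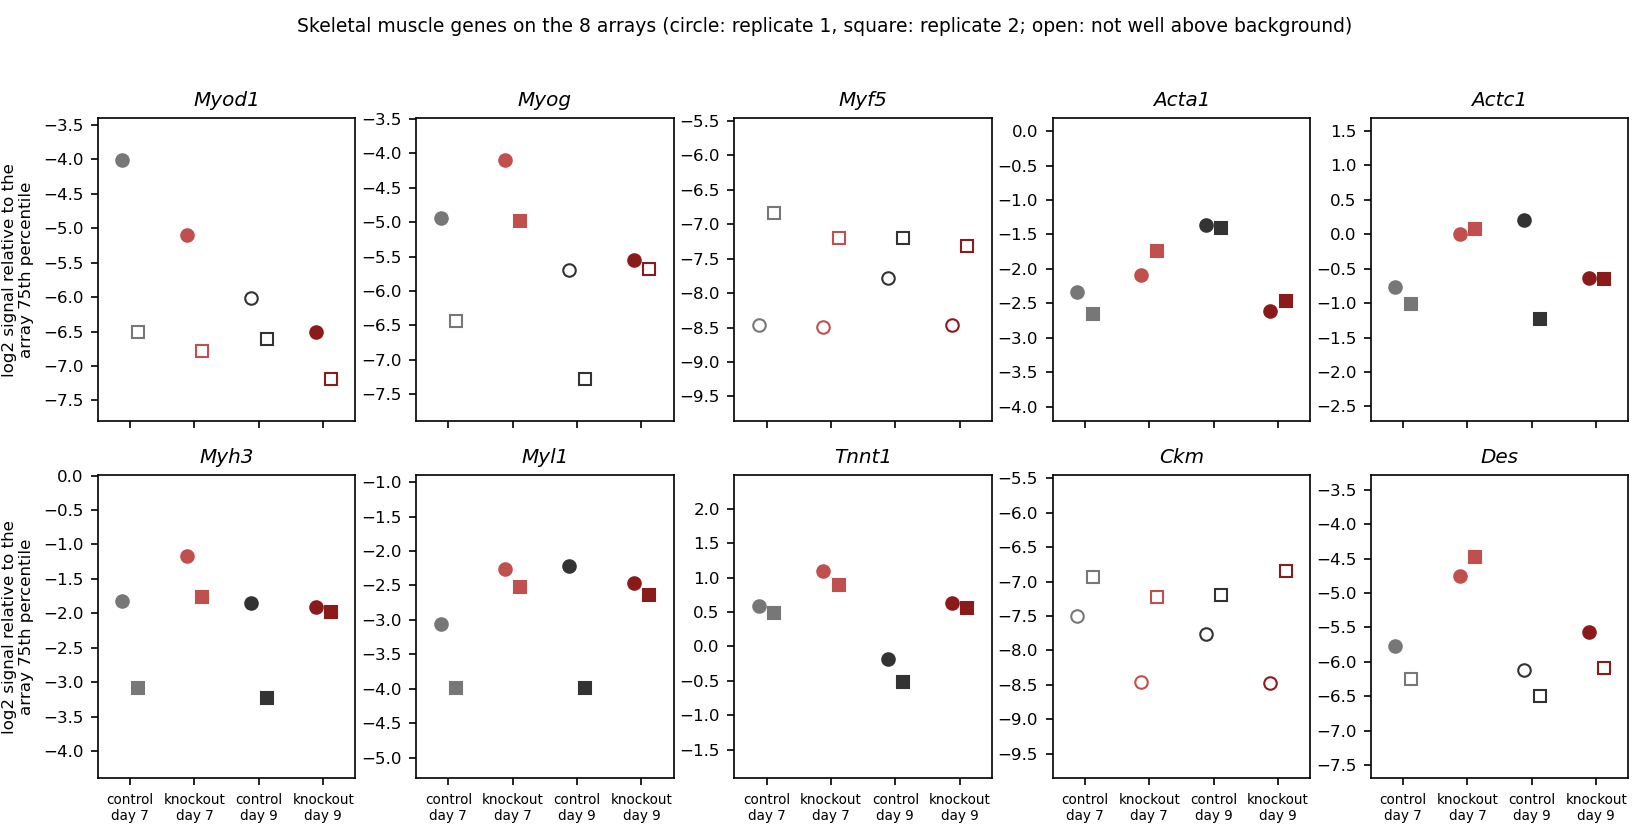
Level of each of the 10 muscle genes on each of the 8 arrays (log2 of the signal minus the array's 75th percentile; every panel spans the same number of units), with circles for replicate 1, squares for replicate 2 and open symbols where the probe was not well above background. Acta1 is highest in the day 9 control, the other 6 measured genes are highest on average in the day 7 knockout, and Myog and Des have open symbols on 4 of 8 arrays, Myf5 and Ckm on all. Myog and Des passed the filter through the day 7 knockout arrays.

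The sarcomeric actins Acta1 (skeletal alpha-actin, chromosome 8) and Actc1 (cardiac alpha-actin, also the actin of early skeletal muscle, chromosome 2) were well above background on all 8 arrays. Their RefSeq promoter windows, which run from 250 bases before to 50 bases after the start on GRCm38.p6, are shown because both hold a CArG box, the motif bound by serum response factor, and because the 2 genes had different patterns over the groups. The 150 bases before the start are chr8:123894776-123894925 for Acta1 and chr2:114052876-114053025 for Actc1, both on the minus strand, and capitals mark the CArG box, whose first base lies at -73 in Acta1 and at -47 in Actc1.
Acta1: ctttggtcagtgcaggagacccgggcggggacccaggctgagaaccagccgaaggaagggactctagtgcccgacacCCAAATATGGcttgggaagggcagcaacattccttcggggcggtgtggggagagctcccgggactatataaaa
Actc1: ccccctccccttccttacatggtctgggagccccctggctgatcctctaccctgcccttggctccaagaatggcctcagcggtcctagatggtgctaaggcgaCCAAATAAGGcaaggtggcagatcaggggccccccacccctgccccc
A CArG box, searched on both strands, is present in 1.63% of the 32851 promoter windows of this length, and in 2 of the 9 windows found for these genes.

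The Acta1 levels of the genotypes lay in opposite order on the 2 days. Its level was -2.34 and -2.65 in day 7 controls, -2.09 and -1.74 in day 7 knockout cells, -1.37 and -1.40 in day 9 controls and -2.61 and -2.47 in day 9 knockout cells. On neither day did the genotypes overlap. Taken by day, 20.5% of all genes were higher in the knockout without overlap on day 7, and 32.5% were lower on day 9. On day 9 the knockout was 2.23-fold lower (log2 change -1.16 ± 0.18, adjusted p 0.0266 in limma). In control cells Acta1 rose 2.16-fold from day 7 to day 9 (1.11 ± 0.18, adjusted p 0.0218), whereas in knockout cells the change was -0.63 ± 0.18 and missed the threshold (adjusted p 0.0838). On day 7 the knockout minus control change was 0.58 ± 0.18 (adjusted p 0.168). The difference between the knockout changes of the 2 days was -1.74 ± 0.25, with an unadjusted p of 0.000313 and an adjusted p of 0.357, so it did not pass over all genes. The day 9 call was lost when any 1 of the 4 day 9 arrays was left out (adjusted p 0.0699 to 0.134), and the rise in controls when replicate 2 of day 7 or either day 9 control array was left out (0.0619 to 0.118), each with its direction kept.

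Actc1 was -0.76 and -1.01 in day 7 controls, 0.01 and 0.07 in day 7 knockout cells, 0.21 and -1.23 in day 9 controls and -0.63 and -0.65 in day 9 knockout cells. The 2 day 9 controls enclosed both day 9 knockout arrays. The knockout minus control change was 0.93 ± 0.42 on day 7 (adjusted p 0.298) and -0.13 ± 0.42 on day 9 (adjusted p 0.877), and without replicate 1 of the day 9 control the second value was 0.59. No contrast called Actc1.

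The thick filament genes Myh3, an embryonic myosin heavy chain, and Myl1, a myosin light chain of fast muscle, were well above background on all 8 arrays. Myh3 was -1.83 and -3.09 in day 7 controls, -1.16 and -1.77 in day 7 knockout cells, -1.85 and -3.23 in day 9 controls and -1.91 and -1.98 in day 9 knockout cells. Myl1 was -3.06 and -3.98, -2.26 and -2.53, -2.22 and -3.98, and -2.47 and -2.64 in the same order. In both genes replicate 2 of either control group lay well under replicate 1, while the knockout pairs lay closer together. Day 7 knockout cells had a log2 change of 0.99 ± 0.56 for Myh3 (adjusted p 0.388) and 1.13 ± 0.57 for Myl1 (0.341), with no overlap of the groups in either gene, as in 20.5% of all genes in that direction. On day 9 the changes were 0.59 ± 0.56 (adjusted p 0.544) and 0.55 ± 0.57 (0.583), the groups overlapped, and without replicate 2 of the day 9 control both values turned, to -0.10 and -0.33. The second Myh3 probe gave 0.87 ± 0.40 on day 7 and 0.52 ± 0.40 on day 9, with adjusted p values of 0.313 and 0.469 over probes. A second Myl1 probe, for another transcript, was above background on replicate 1 of the day 7 control (intensity 23.6) and of the day 7 knockout (209), and its other 6 arrays read 4.69 to 11.6.

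Tnnt1, the slow skeletal troponin T that ties the calcium switch to the thin filament, had the smallest standard error of the members and the most calls. Its level was 0.58 and 0.48 in day 7 controls, 1.09 and 0.89 in day 7 knockout cells, -0.18 and -0.52 in day 9 controls and 0.63 and 0.55 in day 9 knockout cells. Knockout cells lay above controls of the same day with no overlap on both days, and the day 9 controls lay under every other array. Taken by day, 20.5% of all genes were higher without overlap on day 7 and 27.1% on day 9. On day 9 Tnnt1 was 1.92-fold higher in the knockout (0.94 ± 0.16, adjusted p 0.0332 in limma). It fell 1.84-fold in controls from day 7 to day 9 (-0.88 ± 0.16, adjusted p 0.0315), and in knockout cells the change was -0.40 ± 0.16 (adjusted p 0.188). Averaged over both days the knockout was 1.63-fold higher (0.70 ± 0.12, adjusted p 0.018). On day 7 alone the change was 0.46 ± 0.16 (adjusted p 0.212). The day 9 call was lost without any 1 of the 8 arrays (adjusted p 0.0542 to 0.16). That of the fall in controls was lost without any array other than replicate 1 of the day 9 control (0.0516 to 0.152), and that of the mean without replicate 1 of the day 7 knockout or either day 9 knockout array (0.0536 to 0.0642).

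Des encodes desmin, the intermediate filament that links sarcomeres to each other and to the membrane. Like Myog it passed the filter through the day 7 knockout arrays, and its promoter is shown with that of Myog because both hold E-boxes, CANNTG, the site of basic helix-loop-helix factors such as these. The 150 bases before the start are chr1:75360142-75360291 for Des and chr1:134289854-134290003 for Myog, both on the plus strand of GRCm38.p6, with the E-boxes in capitals.
Des: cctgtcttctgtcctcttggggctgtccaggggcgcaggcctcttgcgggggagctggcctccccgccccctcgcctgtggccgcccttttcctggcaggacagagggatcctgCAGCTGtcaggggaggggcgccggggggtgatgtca
Myog: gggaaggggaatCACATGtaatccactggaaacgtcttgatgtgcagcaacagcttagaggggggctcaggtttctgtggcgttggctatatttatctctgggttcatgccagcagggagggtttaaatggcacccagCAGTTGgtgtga
CANNTG was found in 8 of the 9 windows of these genes and in 72.3% of all windows, and its form CAGCTG in 4 of the 9 (Acta1, Myl1, Ckm and Des) and in 16.3% of all. The form CACCTG was in 1 (Tnnt1) and in 20.2% of all.

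The level of Des was -5.77 and -6.25 in day 7 controls, -4.75 and -4.48 in day 7 knockout cells, -6.12 and -6.50 in day 9 controls and -5.57 and -6.09 in day 9 knockout cells. Both day 7 knockout arrays lay above all the others. Only replicate 1 of the day 7 control and of the day 9 knockout was well above background besides them, and neither day 9 control array was. In knockout cells the log2 change of Des from day 7 to day 9 was -1.22 ± 0.26 (adjusted p 0.0399 in limma). It is a description, since Des was kept through its day 7 knockout values and replicate 2 of the day 9 knockout was not well above background, and no fold is given. The call was lost with quantile normalization (adjusted p 0.0543), with a shift to a common median (0.0501), with the authors' log2 values (0.0546), with normexp background correction (-0.28, adjusted p 0.145) and without any 1 of the 4 knockout arrays (0.0808 to 0.187). On day 7 the knockout minus control change was 1.40 ± 0.26 (adjusted p 0.0894). Over the mean of both days limma called Des (adjusted p 0.0252), but 3 of the 4 control arrays were not well above background, so no size is given, and the call was lost without any array other than replicate 1 of the day 7 control (0.0519 to 0.0723).

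**Figure D2:**
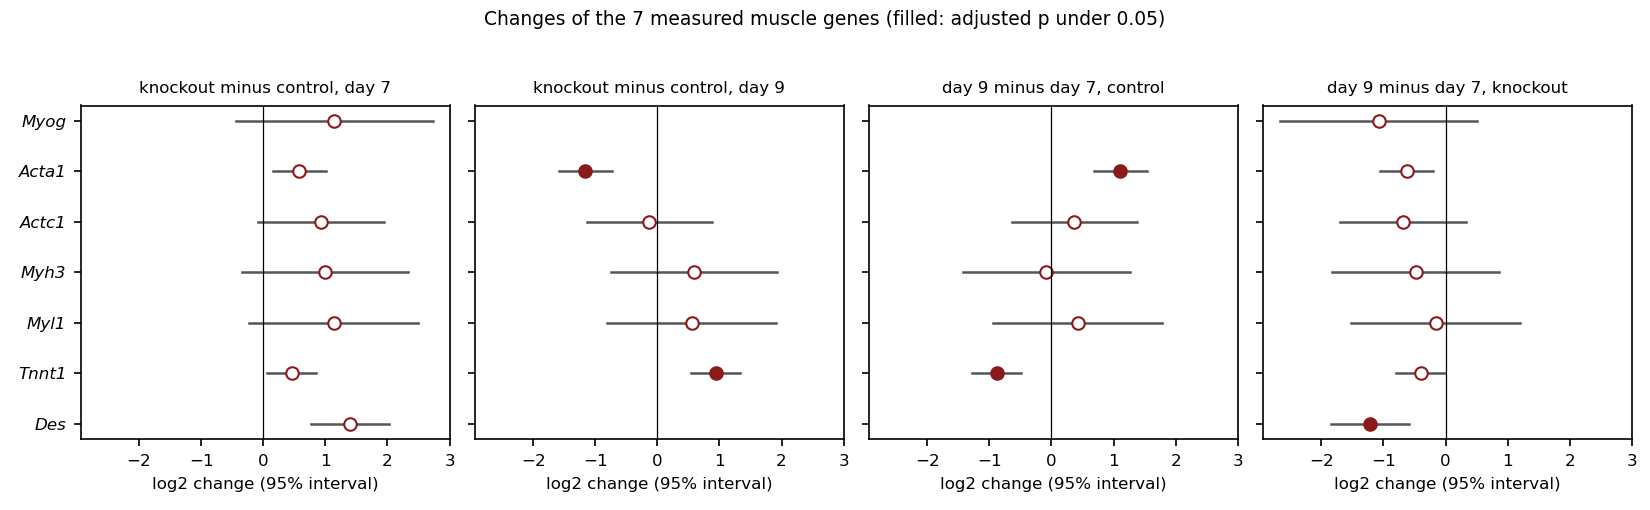
Log2 change (points) with its 95% interval from limma (bars) for the 7 measured muscle genes in 4 comparisons, with filled points where the adjusted p was under 0.05. Myog and Des have no point where the day 9 control enters, since neither was well above background there. Acta1 lies at -1.16 and Tnnt1 at 0.94 on day 9, and on day 7 all 7 points lie above 0 with none filled. Myog and Des passed the filter through the day 7 knockout arrays, which favours their place there.

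Read over the measured members, 0 of 7 were called between the genotypes on day 7, where 0.215% of the 24623 genes tested were called, and 3 had an unadjusted p under 0.05, all higher. All 7 changes were positive, with a median of 0.99 against -0.05 over all genes, and 6 of the 7 had no overlap between the groups, as did 20.5% of all genes in that direction. Myog and Des passed the filter only through their day 7 knockout values, which are their highest, so these counts, and those below that hold them, are a description and support nothing. On day 9, where 5.47% of all genes were called (1.51% higher and 3.96% lower), 1 of 7 was higher (Tnnt1) and 1 lower (Acta1), with a median of 0.55 against -0.02. Over the mean of both days, where 14.8% were called (5.49% higher and 9.34% lower), Tnnt1 and Des were called higher and 0 lower, with a median of 0.79 against -0.04, and Des is counted with 3 of 4 control arrays near background.

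In time, 1 member rose (Acta1) and 1 fell (Tnnt1) in controls, where 7.38% of all genes were called (4.11% higher and 3.27% lower), with a median change of -0.08 against -0.12 over all genes. In knockout cells 1 was called lower (Des), where 8.31% were called (4.15% higher and 4.16% lower), and all 7 changes were negative, with a median of -0.63 against -0.12. The days did not overlap in 6 of the 7, as was so for 35.9% of all genes in that direction. As the day 7 knockout values let Myog and Des through the filter, a fall from them is favoured by it, and these counts too are a description. The comparisons share groups, so their values are not independent of each other. No member was called for the difference between the knockout changes of the 2 days, where 0.00406% of all genes were called. Acta1 and Des had an unadjusted p under 0.05 there, both with negative values. Each of the 7 calls among the members was lost when dim probes were not filtered out (adjusted p 0.0732 to 0.129), and those of Acta1 and Tnnt1 on day 9 and in time in controls when only the 4 arrays of the comparison were fitted (0.063 to 0.113).

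Ranked by group mean among the members above background on all arrays, the day 7 knockout was highest for Actc1, Myh3, Myl1 and Tnnt1. The next group down, the day 9 knockout, did not overlap it for Myh3 (-1.46 against -1.95) and Tnnt1 (0.99 against 0.59), and the next group overlapped it for Actc1 and Myl1. No order is given for Myog and Des, since each group other than the day 7 knockout holds at least 1 array that was not well above background for them. For Acta1 the order was the day 9 control (-1.39), the day 7 knockout (-1.92), the day 7 control (-2.50) and the day 9 knockout (-2.54), of which the last 2 overlapped.

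The 2 arrays of a control group lay far apart for Myh3 and Myl1, and on day 9 for Actc1. Replicate 1 lay above replicate 2 in 7 of 7 measured members in day 7 controls and in 7 of 7 in day 9 controls, against 4 of 7 in day 7 and 6 of 7 in day 9 knockout cells. These counts hold Myog and Des, which were not well above background on either day 9 control array or on replicate 2 of the day 7 control. The median gap was 0.48 and 1.38 in the controls and 0.20 and 0.08 in the knockout, while over all genes replicate 1 was above in 46.5% to 48.9%. In the day 9 controls Myl1 differed by 1.76, a gap that 1.26% of all genes matched or passed in either direction, Actc1 by 1.44 (2.18%) and Myh3 by 1.38 (2.4%). In the day 7 controls Myh3 differed by 1.26 (2.22%). These gaps are part of the spread against which the knockout changes of Actc1, Myh3 and Myl1 were tested. With 2 arrays a group, no member's spread can itself be tested.

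**Figure D3:**
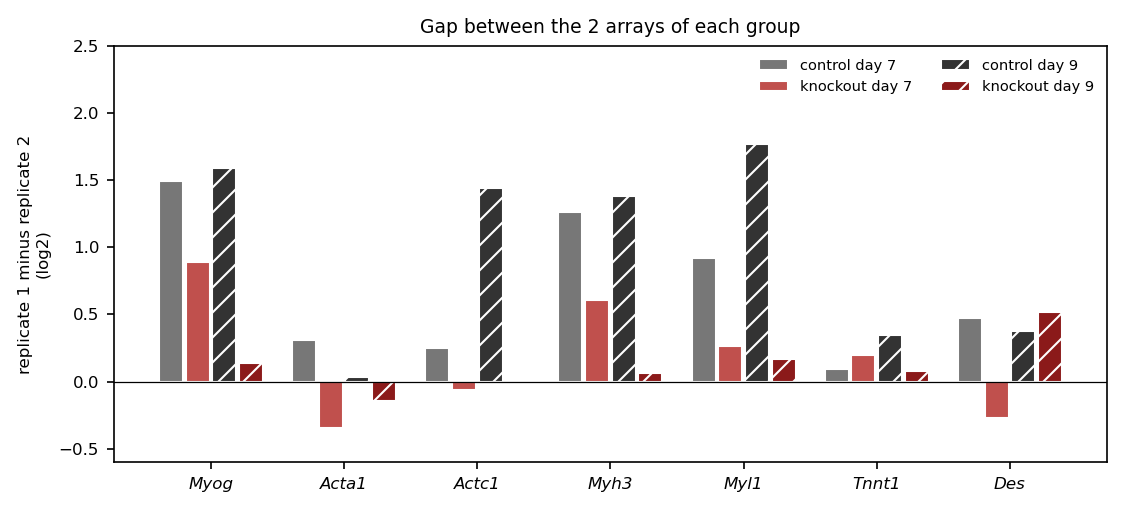
Replicate 1 minus replicate 2 (log2) of each measured muscle gene, as bars, in the 4 groups, with day 9 hatched. Myh3 and Myl1 have tall bars in both control groups, as does Myog, which lay near background there, Actc1 in the day 9 control alone at 1.44, and Acta1 and Tnnt1 stay small in all.

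Over the 8 arrays the levels of Myog and Myh3 had a Pearson r of 0.944, those of Myh3 and Myl1 0.922 and those of Actc1 and Myl1 0.858, while Acta1 had between -0.589 and 0.349 with the other members. These describe 8 arrays that share groups and brightness, so they carry no p. Among the measured genes most like Myog, which had the widest range of the members at 3.18 log2 units with 4 of its 8 values not well above background, were Ddx43 (r 0.983), Tex14 (0.977), Arap3 (0.971) and Ern1 (0.971). Among those most like Myh3, with the next range at 2.07, were Tnni1 (0.955), Hspb8 (0.952), Tpd52l1 (0.95) and Adamts18 (0.947). Of these, Tnni1, the slow troponin I, is on the lists of further muscle genes described next.

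Beside the members, 99 further genes of muscle were listed, all with a probe, and 58 were measured. Called higher and lower by limma were 0 and 0 on day 7 (9 and 8 at an unadjusted p under 0.05), 1 and 3 on day 9, 5 and 7 over the mean of both days, 5 and 1 in time in controls, and 3 and 5 in time in knockout cells. Over all genes, in the same order of comparisons, 0.215%, 5.47%, 14.8%, 7.38% and 8.31% were called. The median change between the genotypes was -0.05 on day 7, -0.16 on day 9 and -0.06 over both days, beside -0.05, -0.02 and -0.04 for all genes. The split of calls moved with the scaling: on day 9 it was 1 and 1 with quantile normalization, 1 and 0 with a common median and 2 and 3 with normexp, and for the mean of both days 5 and 6, 5 and 4 and 5 and 5. In time in knockout cells it was 4 and 4, 6 and 4 and 5 and 2. When any 1 array was left out, fewer of these genes were called on day 9 and over the mean of both days. In time, in either genotype, some of these runs called none. The calls named below are not followed through these runs, so they are no more stable than those of the members.

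The thin filament list had 12 of 15 genes measured. Over both days the fast troponins Tnni2 (0.70 ± 0.15, adjusted p 0.0282) and Tnnt3 (0.62 ± 0.13, adjusted p 0.0262) were higher in the knockout, with 0 lower (2 at an unadjusted p under 0.05). Of all genes 5.49% were called higher and 9.34% lower in that contrast. Tnni2 was -2.77 and -2.94 in day 7 controls, -1.97 and -2.02 in day 7 knockout cells, -2.85 and -3.43 in day 9 controls and -2.54 and -2.65 in day 9 knockout cells. It thus had no overlap of genotypes on either day, like Tnnt1. Of all genes, 20.5% were higher without overlap on day 7 and 27.1% on day 9. Tnni1 had a day 7 change of 1.51 ± 0.54 (adjusted p 0.211), with replicate 2 of both control groups not well above background. It passed the filter through its knockout arrays, which favours a higher knockout, so this change is a description. Tnnc1, the slow and cardiac troponin C, fell in knockout cells from day 7 to day 9 (-0.78 ± 0.15, adjusted p 0.027), a call that a common median ended (adjusted p 0.0653). In controls its change in limma was similar, -0.62 ± 0.15, and just missed the threshold (adjusted p 0.0546).

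Of 15 thick filament genes 7 were measured, and Myh1, Myh2 and Myh4, the adult fast myosins, as well as titin (Ttn) were not. On day 9 Mybpc1, slow myosin-binding protein C, was 2.1-fold higher in the knockout (1.07 ± 0.14, adjusted p 0.0201). Myh7, the slow and cardiac myosin heavy chain, was 1.94-fold lower (-0.95 ± 0.19, adjusted p 0.0426). Myh7 had risen 1.98-fold in controls (adjusted p 0.0341). Its levels of -0.14 and 0.07 in day 9 controls stood above both day 9 knockout arrays, as was so for 32.5% of all genes. The day 9 call of Myh7 was lost with quantile normalization (adjusted p 0.0505) and with a common median (0.0761). Myl2, a myosin light chain of slow and ventricular muscle, was well above background on all day 7 arrays and on none of day 9, and was at least 1.39-fold lower on day 9 in controls (adjusted p 0.017) and at least 2.1-fold lower in knockout cells (adjusted p 0.0222). With normexp both Myl2 calls were lost (adjusted p 0.0592 and 0.0767). Myl2 passed the filter through its day 7 arrays, so a fall from them is favoured by it. "At least" sets the bright group against the detection limit of each dim array, the dimmest signal that any probe above background had there.

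The myogenic regulator and progenitor list had 10 of 15 genes measured, and the muscle progenitor factors Pax3 and Pax7 and the late factor Myf6 were not. Over both days 0 were higher (2 at an unadjusted p under 0.05) and 2 lower in the knockout, among them Met, the receptor of hepatocyte growth factor (-0.58 ± 0.10, adjusted p 0.0183, and 0.156 with normexp). Of all genes 5.49% were called higher and 9.34% lower over both days.

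All 5 genes of fusion and adhesion were measured. Mymx, the small fusion protein also called myomixer, was 3.67-fold lower in the knockout over both days (-1.88 ± 0.41, adjusted p 0.0329), from 0.46, -0.67, -0.57 and -1.82 in controls to -1.20, -2.28, -3.55 and -3.08. Its partner Mymk, the fusion protein myomaker, was not called between the genotypes. Mymk rose in time in both genotypes, by 0.76 ± 0.14 in controls (adjusted p 0.0296) and by 0.71 ± 0.14 in the knockout (adjusted p 0.0301). Ncam1, an adhesion molecule that neurons also carry, was lower over both days (-0.55 ± 0.09, adjusted p 0.0162).

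Of 9 energy genes, 7 were measured. Mb, myoglobin, was not well above background in day 7 controls and was at least 1.83-fold higher in day 9 controls (adjusted p 0.0112, and 0.0606 with normexp). Ampd1, the muscle AMP deaminase, was above background on all 4 day 7 arrays and on none of day 9. It was at least 4.02-fold lower on day 9 in knockout cells (adjusted p 0.0265, and 0.0775 with normexp), from day 7 levels of -5.05 and -2.57. Mb passed the filter through its day 9 arrays and Ampd1 through its day 7 arrays, so these directions are favoured by it. Of the other lists, Flnc, filamin C of the Z-disc, rose 3.23-fold in controls (adjusted p 0.0183) and 3.83-fold in knockout cells (adjusted p 0.00878) and was higher in the knockout over both days (0.73 ± 0.17, adjusted p 0.0401). Cryab, a small heat shock protein of muscle and other tissues, was lower over both days (-0.61 ± 0.15, adjusted p 0.0415, and 0.0747 with a common median), and rose 2.31-fold in controls in time (adjusted p 0.027). The calcium channel genes Ryr1 (-1.04 ± 0.20 in time in knockout cells, adjusted p 0.0293, with replicate 2 of day 9 not well above background) and Cacna1s (-0.51 ± 0.12 over both days, adjusted p 0.0399) were called lower. Ryr1 passed the filter through its day 7 knockout arrays alone, so a fall from them is favoured by it and is a description. The Ryr1 call was lost with quantile normalization (adjusted p 0.0663) and normexp (0.112), and the Cacna1s call with quantile normalization, a common median, normexp and the authors' log2 values (0.062 to 0.101). On the muscle side of the neuromuscular junction 3 of 9 genes were measured and limma called 0 in any contrast (1 had an unadjusted p under 0.05 on day 7, 2 in time in controls and 1 in time in knockout cells), and the receptor subunit genes Chrna1, Chrnd, Chrng and Chrne and the kinase gene Musk were not measured.

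The helix-loop-helix partners and inhibitors of the myogenic factors were measured in 9 of 10 cases. Id1, which binds their E-protein partners and keeps them off DNA, was higher in the knockout on day 9 (1.12 ± 0.23, adjusted p 0.0469, and 0.0548 with quantile normalization) and over both days (1.02 ± 0.16, adjusted p 0.0169). It fell in time in controls (-1.47 ± 0.23, adjusted p 0.0214) and in knockout cells (-1.26 ± 0.23, adjusted p 0.0258), where Id2 (-1.77 ± 0.36, adjusted p 0.0348) and Id3 (-1.22 ± 0.18, adjusted p 0.0127) fell too and Id4 rose (0.80 ± 0.17, adjusted p 0.0395). In controls Id2 and Id3 were also lower on day 9, though not called. There Id2 went from 2.59 and 2.05 to 1.37 and 0.78, and Id3 from 3.67 and 4.04 to 3.06 and 3.33. Among 10 nonmuscle relatives of the members, all measured, Myh9, a nonmuscle myosin heavy chain, was 2-fold lower in the knockout on day 9 (adjusted p 0.0466, and 0.0761 with a common median) and over both days (-0.84 ± 0.15, adjusted p 0.0196).

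Markers of other cell types also differed between the groups. Fibroblast markers, 8 of 8 well above background on all arrays, were called higher in the knockout in 7 of 8 cases over both days and in 3 of 8 on day 9, Postn (1.51 ± 0.31, adjusted p 0.0441), Col1a1 (1.51 ± 0.30, adjusted p 0.0418) and Pdgfrb (1.21 ± 0.19, adjusted p 0.0274), where 5.49% and 1.51% of all genes were called higher. On day 9 the count was 1 of 8 with quantile normalization or the authors' log2 values and 4 of 8 with a common median or normexp. Their summed level, in multiples of the array's 75th percentile, was 25.25 to 36.8 in day 7 controls, 51.54 to 70.02 in day 7 knockout cells, 68.94 to 79.12 in day 9 controls and 123.5 to 143 in day 9 knockout cells. Neuron and motor neuron markers ran the other way, with 1 of 15 higher and 9 lower over both days. Of all genes 5.49% were called higher and 9.34% lower there. The summed level of the neuron markers was 372.4 to 422.2, 276.7 to 296.8, 199 to 257.9 and 116.6 to 123.4 in the same order. The summed level of the 7 measured muscle members was 2.26 to 2.734, 3.747 to 4.124, 1.686 to 2.951 and 2.732 to 2.849. It was highest in the day 7 knockout, while the fibroblast sum peaked in the day 9 knockout and the neuron sum in day 7 controls. That peak was not particular to the members. The sums of the muscle energy genes (5.145 to 5.776) and of the helix-loop-helix partners and inhibitors (68.32 to 83.02) were highest there too. The thin filament sum also reached its top there (25.75 to 31.26), overlapping day 7 controls (19.06 to 25.98). None of the other lists of further muscle genes had its highest sum there. Each sum, here and below, is weighted to the brightest genes of its list. Among the members these are Tnnt1 and Actc1, with mean levels of 0.99 and 0.04 in the day 7 knockout.

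Paraxial mesoderm and somite markers, 10 of 13 measured, had a summed level of 2.369 to 3.308 in day 7 controls, 4.093 to 5.961 in day 7 knockout cells, 3.075 to 3.392 in day 9 controls and 4.748 to 4.798 in day 9 knockout cells. The median of these genes, each relative to its own mean over the arrays, was 0.09 and 0.06 in the day 7 knockout. In the day 9 knockout it was higher, at 0.29 and 0.25. Over both days 2 were higher, Tcf15 (0.90 ± 0.14, adjusted p 0.0165) and Meox2 (0.59 ± 0.14, adjusted p 0.0432), and 1 lower, Ripply2 (-0.66 ± 0.10, adjusted p 0.0144). The shares of all genes called over both days, 5.49% higher and 9.34% lower, stand beside this count and the cardiac and smooth muscle counts below. Msgn1, Mesp1 and Pax1 were not measured. Cardiac markers, 9 of 11 measured without Tbx5 and Myl7, had 0 higher (1 at an unadjusted p under 0.05) and 3 lower over both days, led by Mybpc3 (-1.45 ± 0.28, adjusted p 0.0238), and a summed level highest in day 9 controls at 2.657 to 4.227, against 1.721 to 2.019 in day 9 knockout cells. Smooth muscle markers, 8 of 10 measured without Myh11 and Lmod1, had 1 higher over both days, Smtn (0.51 ± 0.13, adjusted p 0.0482, and 0.0577 with quantile normalization), and a summed level of 19.15 to 20.8, 30.33 to 32.81, 45.54 to 58.85 and 43.07 to 49.31 in the 4 groups. The part of any of these cell types in the changes of the muscle genes was not tested.

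**Figure D4:**
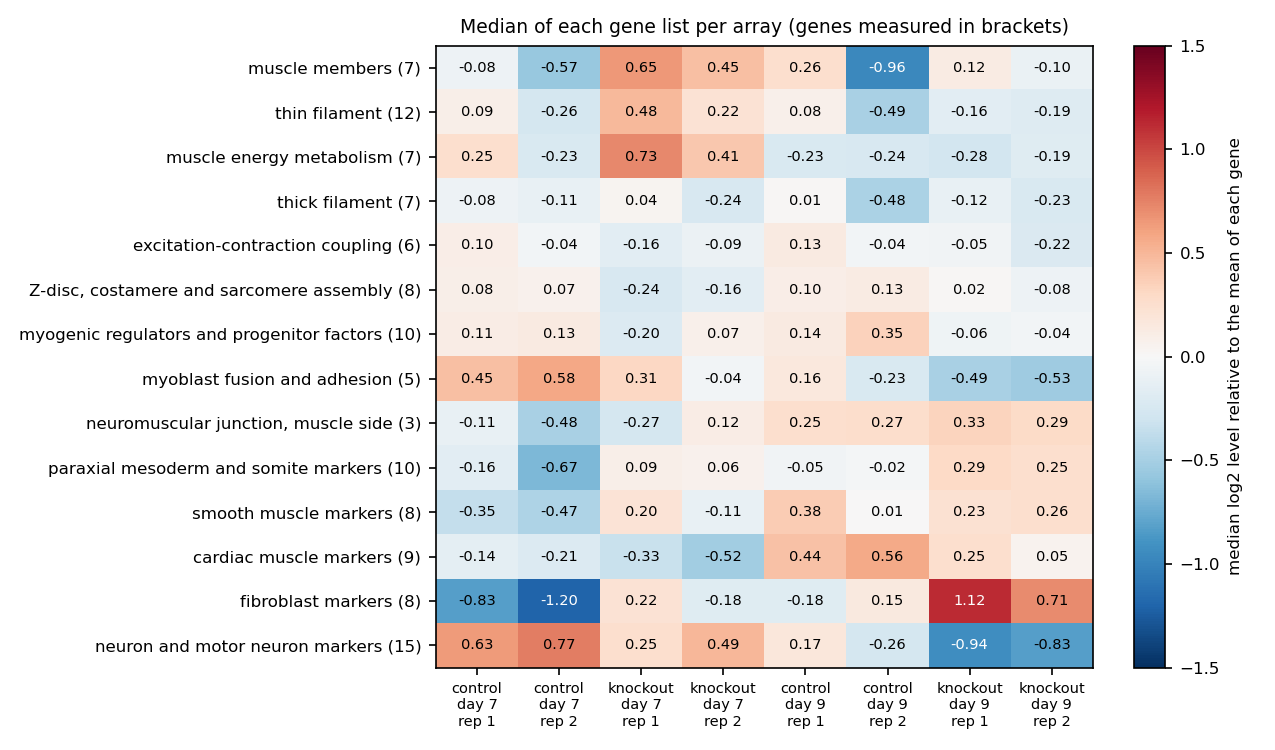
Median level of each gene list on each of the 8 arrays, as the log2 difference of each measured gene from its own mean over the 8 arrays (colour and printed value; number of measured genes in brackets). The muscle members are highest in the day 7 knockout (0.65 and 0.45) and lowest in replicate 2 of the day 9 control (-0.96), while fibroblast markers are highest in the day 9 knockout (1.12 and 0.71). The members hold Myog and Des, which passed the filter through the day 7 knockout arrays and were not well above background in day 9 controls. The filter thus favours this order of the members.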

How the data were processed

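RNA of 8 samples was hybridised to 1-colour Agilent arrays of 62976 spots. Per the labels' protocols, RNA was taken with Trizol, treated with DNase, had an integrity number above 9, and 0.5 ug was labelled with Cy3. Agilent Feature Extraction 10.5.1 read the images, per the submitters' processing notes. The deposited processed signal is an intensity, background-subtracted per the file headers and not scaled between arrays. A deposited log2 table of these arrays by the authors, with a median of 5.81 in each column, served as an alternative, and its offset is unknown. Its sorted values differ by at most 0.025 between columns, as they would after quantile normalization. The normexp alternative was also quantile normalized, so neither is a check separate from the quantile run.

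From the intensities, control spots (3671 per array) and outlier spots were left out, and spots of a probe averaged as log2 minus the array's 75th percentile. A probe was kept if well above background (probes with 10 spots: 5 or more of 10) on both arrays of 1 group or more; the kept probe with the highest mean stood for a gene, and 24623 genes, 15030 of them with a symbol, were tested. Probes carry no gene name in the files, so RefSeq accessions were matched to a mouse gene table on GRCm38.p6 (26300 of 55681 probes). The array's positions are on mm9, and no gene coordinate of the table is printed. Promoter windows, from RefSeq on GRCm38.p6, were matched by symbol for 9 of the 10 members, all but Myod1.

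limma 3.58.1 (R 4.3.3; lmFit, eBayes, two-sided) fitted 4 group means to 8 arrays (4 residual and 2.53 prior degrees of freedom), with Benjamini-Hochberg adjustment over all genes tested and calls at an adjusted p under 0.05; ± is the standard error. All arrays were on 1 slide and scan. The number of arrays limits the precision. The normexp alternative used the median spot signal, since the mean signal planned for it was not among the columns. Named genes were the 10 members, for each list up to 4 called genes with the largest change per contrast (2 where none was called), and the 5 genes most correlated with the 2 members of widest range; some of these are not reported here. Members and lists were chosen with earlier results of these data known.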

Additional observations from a re-analysis of the deposited data

Results flagged for a closer look

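Acta1 moved in opposite directions between the genotypes on the 2 days: both knockout arrays lay above both controls on day 7 and under both on day 9. Taken by day, 20.5% of all genes lay above in that way on day 7 and 32.5% under on day 9. The difference between the 2 changes was -1.7382 log2 units, with an adjusted p of 0.357 in limma, so it did not pass.

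The second Myl1 probe, A_52_P273120, which entered no test, read an intensity of 209 on replicate 1 of the day 7 knockout, against 4.69 on replicate 2 of that group, 23.6 and 5.55 in the day 7 controls and 5.01 to 11.6 on day 9. The first Myl1 probe read 354 and 116 on those 2 knockout arrays.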

How the results depend on the processing

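Of 42 log2 changes (7 members in 6 contrasts), 33 kept their sign in every alternative run, among them all 7 called changes, all 7 day 7 genotype changes and all 7 changes in time in the knockout. Several runs cannot move a log2 change, so a sign kept in them shows nothing. They are no filter on dim probes, only the 4 arrays of a comparison, the replicate block and leaving out an array of another group. The same holds for array weights, which were equal within each group, and for the filter to probes above background on all 8 arrays. The mean of all kept probes can move only Myh3, which had a second kept probe. These counts also hold Myog and Des, which the filter kept through their day 7 knockout values. The calls were less stable. With quantile normalization, a common median, normexp or the authors' log2 values, the count of members called in time in the knockout went from 1 to 0, and the other 6 calls held. With no filter on dim probes the counts for day 9, control time, knockout time and the mean of both days were all 0; with probes above background on all 8 arrays, knockout time was 0 and the mean 1, since Des was not tested; with only the 4 arrays of a comparison, day 9 and control time were 0. Leaving out 1 array gave 0 to 1 calls for day 9 and for control time (2 each with all arrays), 0 to 1 for knockout time (1), 0 to 2 for the mean (2) and 0 for day 7 and the interaction. Where a group was left with 1 array, that array is assumed to vary like the others. The cause of the losses was not tested. Actc1 was called over both days without replicate 1 of the day 9 control (0.76, adjusted p 0.0382).

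Signs turned in uncalled changes. The Myog interaction was 0.074 with quantile normalization and 0.076 with the authors' values, Actc1 on day 9 was 0.084 with a common median, and Myh3 in control time was 4e-04 with the mean of its probes. Leaving out 1 array gave, on day 9, -0.85 to 0.59 for Actc1, -0.10 to 1.28 for Myh3 and -0.33 to 1.43 for Myl1; in control time, -0.35 to 1.09 for Actc1, -0.77 to 0.61 for Myh3 and -0.46 to 1.30 for Myl1; and for the interaction, -1.07 to 0.52 for Myog, -1.09 to 0.29 for Myh3 and -1.46 to 0.30 for Myl1. In each of these 9, the lowest and highest values came from leaving out one or the other day 9 control array. A common median moved the median of all genes on day 9 from -0.02 to 0.19.

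With the replicate number as a block, the 7 calls held, with 2, 2, 1 and 2 members called on day 9, in control time, in knockout time and over both days, and the count of all genes called went from 53 to 102 on day 7 and from 1347 to 2030 on day 9. Deviations of same-numbered arrays correlated between -0.248 and 0.464, and the labels do not say that a number marks a shared batch, so no pairing was assumed. Over all alternatives the genes called on day 9 ran from 1 to 2030. Des, Myog and Myod1 lie near background, which limits what their values show.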
